A study of Mus musculus with 4 samples.

Results

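The 10 genes described here encode the machinery of store-operated calcium entry and proteins that act beside it: the sensors Stim1 and Stim2, the channel subunits Orai1, Orai2 and Orai3, the regulators Saraf and Cracr2b, and the membrane scaffold, contact and reticulum proteins Ahnak, Esyt1 and Grina. They were taken by gene name from the 56493 genes of the deposited count table, and each name matched 1 row. Dorsal epidermis was compared between 2 libraries of conditional knockout mice (cKO), in which a Cre recombinase under the keratin 14 promoter removes Stim1 and Stim2 from epithelium, and 2 libraries of mice with the floxed Stim1 and Stim2 alleles (labelled F/F, here control). Age, sex and strain are not given in the labels, and nothing says whether each library is a separate mouse, so the p-values measure only the spread between these libraries, which may be technical. The promoter drives Cre in epithelium; how many cells of the separated sheet had recombined was not measured in these libraries.

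When the calcium store of the endoplasmic reticulum empties, STIM proteins in its membrane cluster where the reticulum touches the plasma membrane, and there they open channels built of ORAI subunits. The calcium that enters refills the store and also serves as a signal, for example through calcineurin and the NFAT transcription factors. In epidermis, calcium is a central cue for keratinocytes to stop dividing and to differentiate.

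The libraries were shallow, with total counts from 118858 (cKO replicate 2) to 322426 (control replicate 2). Nuclear pseudogenes nearly identical to mitochondrial genes took 8.28% to 14.0% of the counts in control and 14.2% and 24.0% in cKO, so that cKO replicate 2 was both the shallowest library and the one with the highest share. The deposited counts list 0 genes of the mitochondrial chromosome. Reads of mitochondrial RNA and of these nuclear copies can therefore not be told apart. The keratinocyte genes Krt5, Krt14, Krt1 and Krt10 had counts in all 4 libraries, which fits the labelled tissue. Of the 4 endothelial genes listed, Cdh5 and Kdr were at 0 in every library, and Pecam1 and Vwf had at most 1 count in any. Levels below are in CPM, that is, counts scaled to the effective library size over the tested genes. The detection limit was set at 3 counts, an approximate upper bound for a count of 0. It equals 16.01 and 9.58 CPM in control and 12.1 and 33.7 CPM in cKO, in replicate order. Intervals of counts and shares cover counting error only, and all are 95% Wilson intervals unless named otherwise.

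Ahnak carried nearly all of the counts of the 10 genes. AHNAK is a very large scaffold protein that lies under the plasma membrane and binds annexin A2 with S100A10. The gene (ENSMUSG00000069833) lies on the plus strand of GRCm39 chromosome 19, from 8966648 to 9054278. It reached 1081 and 2137 counts in the control libraries and 813 and 234 in the cKO libraries. That was 92.9% and 92.6% of the 10-gene sum in control, and 91.8% and 89.0% in cKO. The intervals of these 4 shares overlapped: the lowest, in cKO replicate 2, ran from 84.6% to 92.2%, and that of control replicate 1 from 91.3% to 94.3%. Ahnak was the 12th and 10th most counted gene in the control libraries and the 27th and 39th in the cKO libraries.

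The 10 genes together took 0.581% (interval 0.548% to 0.615%) and 0.716% (0.687% to 0.746%) of all counts in control, and 0.314% (0.294% to 0.335%) and 0.221% (0.196% to 0.250%) in cKO. Both cKO shares lay below both control shares, with intervals that did not meet. The means were 0.648% ± 0.0956 in control and 0.268% ± 0.0655 in cKO (SD, n = 2 each), so the cKO share was 0.413 times that of control. On effective library sizes in place of library totals the ratio was 0.482. With 2 libraries per group the exact two-sided permutation test gave p = 0.333, the smallest value this design allows. Without Ahnak, the other 9 genes took 0.0409% and 0.0530% in control and 0.0259% and 0.0244% in cKO, a ratio of 0.535.

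**Figure D1:**
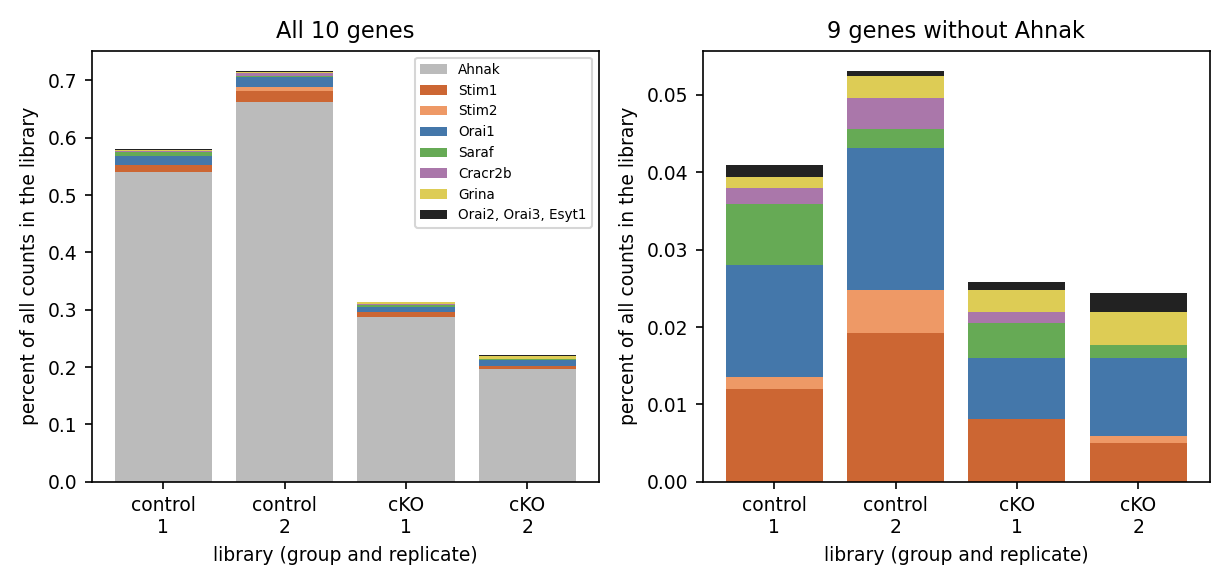
Share of all counts taken by the 10 genes in each library (left) and by the 9 genes other than Ahnak (right), in percent of the library total, stacked by gene. Ahnak fills most of each bar on the left, and the whole bars of both cKO libraries (0.314% and 0.221%) are lower than those of both control libraries (0.581% and 0.716%).

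Only 6 of the 10 genes carry the annotation "store-operated calcium entry" in the deposited table: both Stim genes, the 3 Orai genes and Cracr2b. Those 6 genes took 0.0310% and 0.0471% of the counts in control, and 0.0174% and 0.0160% in cKO, a ratio of 0.427. The counts behind these shares were small, at 62 and 152 in control and 49 and 19 in cKO. The table gives the annotation to 9 genes in all, and the remaining 3 were barely seen: Cracr2a and Ms4a1 were at 0 in every library and Srl had 1 count in control replicate 2.

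All genes above a filter on low counts were tested together by edgeR (quasi-likelihood), and p-values were adjusted by Benjamini and Hochberg's method over these 4243 genes. Stim1, Orai1, Saraf and Ahnak passed the filter. The other 6 genes did not, and those with more than 3 counts in some library were tested in a second fit to which all 6 were added. No member was called at an adjusted p under 0.05, where 0.848% of all tested genes were called in either direction, 0.189% as lower and 0.66% as higher in cKO. DESeq2 and limma-voom called 0 members as well, and 1.01% and 0.354% of all tested genes. At an unadjusted p under 0.05 and lower in cKO the count was 1, Ahnak, as were 4.17% of all tested genes. Ahnak was also the 1 tested member with a log2 fold change of -1 or below, as were 8.84% of all tested genes. The fitted values of the 4 genes that passed the filter were all below 0, with a median log2 fold change of -0.83 beside 0.01 for all genes tested. That median is a description of 4 genes and was not tested.

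The sensors come first because they were targeted. Stim1 (ENSMUSG00000030987, GRCm39 chromosome 7, 101917013 to 102086526, plus strand) is the main sensor of store depletion in most cells. It stood at 128 and 198 CPM in the control libraries, and at 93.0 and 67.4 CPM in the cKO libraries, from 24, 62, 23 and 6 counts. The mean in cKO was thus 49.2% of that in control, and the lowest control value was 1.38 times the highest cKO value, so the groups did not overlap. The log2 fold change of -0.98 had a standard error of 0.52 and a 95% interval from -2.10 to 0.13, which spans 0 (edgeR adjusted p 0.671). Stim1 transcripts were thus still counted in both cKO libraries.

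Stim2 (ENSMUSG00000039156, GRCm39 chromosome 5, 54155841 to 54278399, plus strand) responds to smaller drops of the store than STIM1 and helps to set resting calcium. It had 3 and 18 counts in control and 0 and 1 in cKO, or 16.0 and 57.5 CPM against 0 and 11.2 CPM. Pooled over the libraries of a group, the ratio of cKO to control was 0.0709, with an exact Clopper-Pearson counting interval from 0.00171 to 0.441. The interval lies below 1 for counting error, but most control counts came from 1 library, and edgeR gave an adjusted p of 0.632 with the gene added to the fit. Its fitted log2 fold change of -3.34 moved between -6.27 and -1.75 when single libraries were left out.

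Neither count is a direct measure of the deletion. The kit reads the 3' end of transcripts and the table sums each gene over all its exons (14 for Stim1 and 14 for Stim2 after merging). The labels do not name the exons that Cre removes. If those exons lie outside the stretch that was read, RNA from a recombined allele is counted like any other. In bulk epidermis, fewer cells that express a gene and less of its RNA per cell cannot be told apart either.

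**Figure D2:**
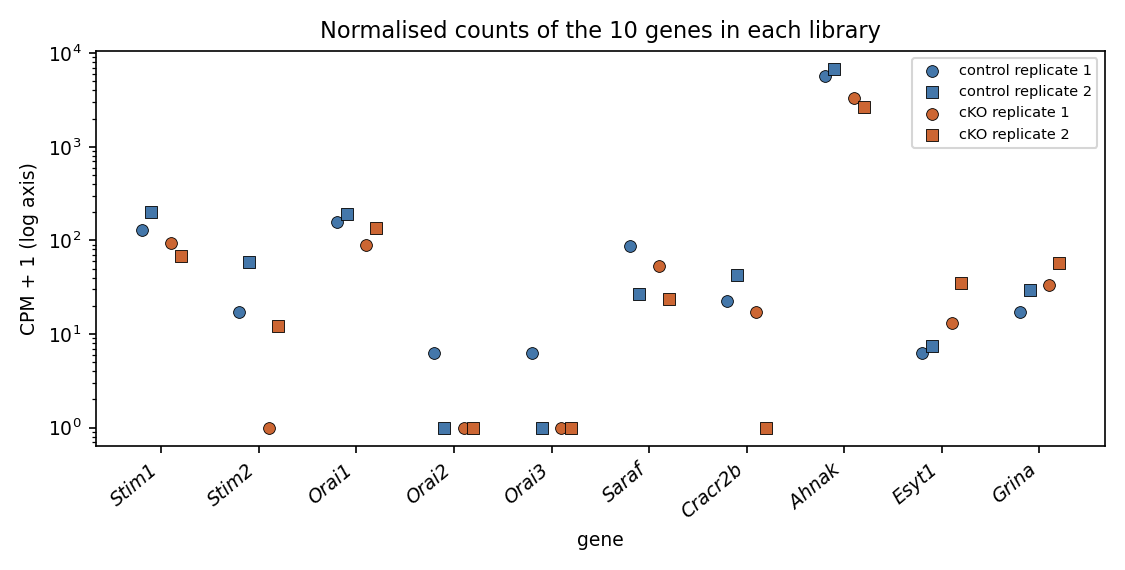
Normalised counts (CPM + 1, log axis) of each of the 10 genes in the 2 control and 2 cKO libraries; points at the bottom are counts of 0. Ahnak lies more than an order of magnitude above all others, and the cKO points of Stim1, Stim2, Orai1, Cracr2b and Ahnak all lie below their control points.

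Among the channel subunits only Orai1 was measured well. Orai1 (ENSMUSG00000049686, GRCm39 chromosome 5, 123153137 to 123168519, plus strand) forms the pore of the classical calcium release-activated channel. It had 155 and 188 CPM in control and 89.0 and 135 CPM in cKO, from 29, 59, 22 and 12 counts. The groups did not overlap, but the lowest control library was only 1.15 times the highest cKO library. On the log2 scale the change was -0.68 with a standard error of 0.49 (95% interval -1.74 to 0.38, edgeR adjusted p 0.819).

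Orai2 and Orai3, which encode the other channel subunits and can form mixed channels with ORAI1, each had 1 count, both in control replicate 1, while the other 3 libraries held none. They were below the limit of detection in every library, so no change can be given. In control replicate 2, the deepest library, the limit for a count of 0 was 9.58 CPM, far below the 188 CPM of Orai1 there. At this depth Orai1 was therefore the one Orai transcript detected above the limit.

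The regulators were sparse. Saraf, whose protein sits in the reticulum membrane and promotes the slow inactivation of the STIM-ORAI complex, had 16 and 8 counts in control and 13 and 2 in cKO. The corresponding 85.4 and 25.5 CPM against 52.6 and 22.5 CPM overlap, and replicates of one group differed more than the group means. Its log2 fold change of -0.37 had a standard error of 0.85 (edgeR adjusted p 0.988), and the sign turned in 3 of 17 alternatives. Cracr2b, an EF-hand protein related to a cytosolic regulator of ORAI1, had 4 and 13 counts in control and 4 and 0 in cKO. Its level was 21.3 and 41.5 CPM against 16.2 and 0 CPM, and the pooled ratio of 0.350 had an exact counting interval from 0.0857 to 1.07. The log2 fold change of -1.52 had a standard error of 1.29 (edgeR adjusted p 0.883, gene added to the fit), and this value rested on single libraries, at -5.70 with cKO replicate 1 left out and -0.96 with cKO replicate 2 left out. Cracr2b shares 1405 exon bases with the antisense gene Gm10575, which had 0 counts; whether the counting used strand is not given in the sources used here.

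Ahnak was the best measured member. Its level was 5768 and 6824 CPM in control and 3287 and 2630 CPM in cKO. Both cKO libraries were below both control libraries, and the lowest control value was 1.75 times the highest cKO value. On the log2 scale the change was -1.09 with a standard error of 0.43. The 95% interval for this gene alone, from -2.02 to -0.16, lies below 0, with an unadjusted p of 0.0249, but over 4243 tests the edgeR adjusted p was 0.479. Of the tested genes, 7.45% had a lower fold change than Ahnak, 9.26% a lower one than Stim1 and 15.8% a lower one than Orai1. Fold changes this low were therefore not rare among all tested genes, which were not matched to these members for abundance.

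The last 2 genes were also sparse. ESYT1 tethers the reticulum to the plasma membrane and moves lipids between them. Its gene had 1 and 2 counts in control and 3 and 3 in cKO, none above the limit of 3 counts, so no change can be given. Grina encodes a reticulum membrane protein of the TMBIM family, whose members modulate calcium release and cell death. It had 3 and 9 counts in control and 8 and 5 in cKO, or 16.0 and 28.7 CPM against 32.3 and 56.2 CPM. The cKO values were the higher ones in both libraries, and the fitted log2 change was 0.83, with a standard error of 0.99 and an interval from -1.31 to 2.96 (edgeR adjusted p 0.945, gene added to the fit).

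**Figure D3:**
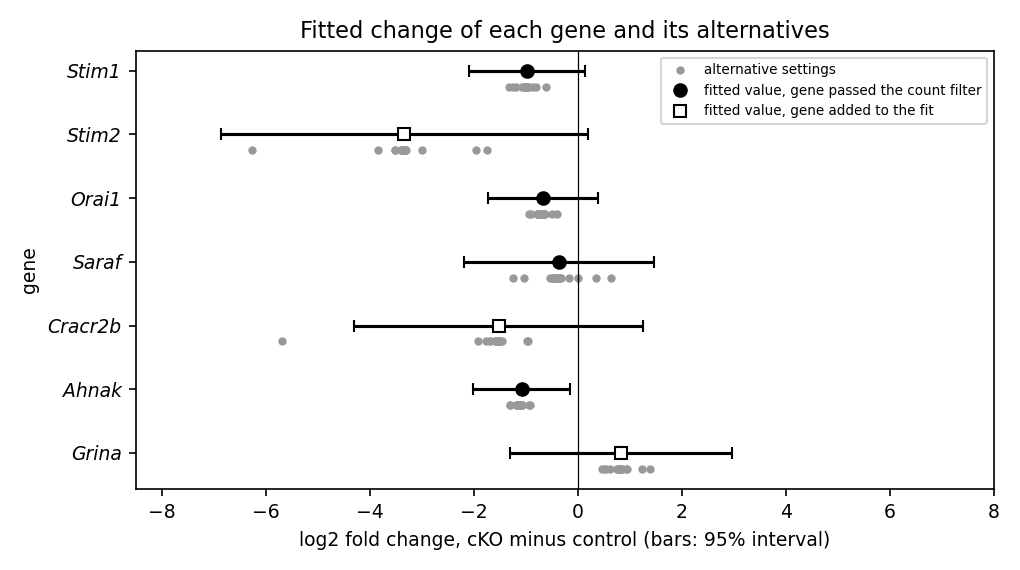
Log2 fold change (cKO minus control) of the 7 genes with more than 3 counts in some library, with the 95% interval of the edgeR fit as bars; grey dots below each gene are its values under 17 alternative settings. The interval of Ahnak alone lies below 0, and the intervals of Stim2 and Cracr2b are the widest.

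Across the 10 genes, both cKO values lay below both control values in 5 (Stim1, Stim2, Orai1, Cracr2b and Ahnak) and above them in 2 (Esyt1 and Grina). For 3 of these 7 genes the detection limit does not resolve the separation. All counts of Esyt1 are at or under 3. For Stim2 and Cracr2b the limit of cKO replicate 2 (33.7 CPM) is above the level in control replicate 1 (16.0 and 21.3 CPM). For Stim1, Orai1 and Grina the counting intervals of the library shares overlapped between the nearest control and cKO libraries. The Stim1 interval was 0.0081% to 0.0178% in control replicate 1 and 0.0054% to 0.0122% in cKO replicate 1. Of the 7 genes, only Ahnak had intervals that stayed apart between the groups. Among the 17179 genes with a count, 15% were separated in the lower direction and 12.2% in the upper. Of the 4 members that passed the filter, 3 were separated with cKO lower, against 19.6% of all tested genes. Members were chosen for their role and Stim1 and Stim2 for being targeted, so this count is not a test.

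The levels differed widely between the genes. In control, Ahnak (6296 ± 747 CPM, SD, n = 2) was followed by Orai1 (172 ± 23.8) and Stim1 (163 ± 49.4), whose ranges overlapped. Saraf (55.5 ± 42.3), Stim2 (36.7 ± 29.3), Cracr2b (31.4 ± 14.3) and Grina (22.4 ± 9.003) came next, and each overlapped its neighbour. In cKO the first 3 places were the same, with 2959 ± 465 CPM for Ahnak, 112 ± 32.5 for Orai1 and 80.2 ± 18.1 for Stim1, and Orai1 and Stim1 overlapped again. Grina (44.3 ± 16.9) took the fourth place there, and Stim2 (5.62 ± 7.95) the eighth. Divided by exon length, which runs from 2067 bases in Grina to 19938 in Ahnak, the control levels were 316 ± 37.5 CPM per kilobase for Ahnak, 74.8 ± 10.4 for Orai1, 18.7 ± 14.3 for Saraf and 15.7 ± 4.77 for Stim1. Ahnak and Orai1 held the first places on both scales, and Saraf and Stim1 changed places; reads from 3' ends need not grow in number with gene length.

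Within a library, counts of 2 genes can be set against each other without any scaling. For every 100 Ahnak counts there were 2.22 (interval 1.49 to 3.32) and 2.90 (2.26 to 3.73) Stim1 counts in control, and 2.83 (1.87 to 4.27) and 2.56 (1.16 to 5.65) in cKO. The cKO ratios thus lay between the control ratios, although both genes were lower in cKO. For Orai1 the ratios were 2.68 and 2.76 in control and 2.71 and 5.13 in cKO, and the interval of the last, from 2.89 to 9.09, overlapped those of the others. Stim1 counts per Orai1 count were 0.828 and 1.05 in control, and 1.05 and 0.500 in cKO, again with overlapping intervals. A difference in the balance of Stim1, Orai1 and Ahnak between the groups was not detectable at this depth.

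Other tested genes followed the same course over the 4 libraries. Likeness was measured as the root-mean-square difference of log2 levels after centring each gene, over 3569 genes at 50 CPM or more on average. The nearest genes to Stim1 were Eid1 (difference 0.073), Ankrd35 (0.079) and Ctnna1 (0.097). The nearest to Ahnak were Tanc1 (0.028), Fryl (0.068) and Mxd4 (0.095). The distance between Stim1 and Ahnak themselves was 0.15. With 4 libraries such closeness is easily reached, and it is given as a description only.

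Other genes of the pathway were examined from 6 lists with 68 genes, of which 26 passed the filter. In these lists edgeR called 0 genes, DESeq2 0 and limma-voom 0, beside 36, 43 and 15 of all 4243 tested genes. By edgeR, 4 of the 26 had an unadjusted p under 0.05, as did 8.39% of all tested genes. Among proteins of contacts between reticulum and plasma membrane, 2 of 6 tested genes were higher in cKO and 4 lower, with a median log2 fold change of -0.64. Vapa, an anchor for lipid transfer proteins, had 12 and 19 counts in control and 19 and 13 in cKO (log2 fold change 0.76, standard error 0.61). Osbpl5, a lipid transfer protein of these contacts, had 21 and 37 counts against 13 and 3 (-1.33, standard error 0.61, edgeR adjusted p 0.59). The relatives of Esyt1 differed in sign, at -1.06 (standard error 0.67) for Esyt2 and 1.30 (standard error 0.92) for Esyt3.

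In the list of AHNAK partners and relatives, all 3 tested genes had fitted values below 0, with a median of -0.56. Anxa2, the annexin that AHNAK binds, had 243 and 368 counts in control and 129 and 66 in cKO, or -0.98 on the log2 scale (standard error 0.42, edgeR unadjusted p 0.0377, adjusted p 0.535). S100a10 was at -0.56 (standard error 0.50) and Ahnak2, a second giant protein of the same family, at -0.47 (standard error 0.48). The TMBIM family, to which Grina belongs, had 3 of 4 tested genes higher and a median of 0.61. Tmbim6, an inhibitor of cell death in the reticulum, was at 0.39 (standard error 0.45) and Ghitm, the mitochondrial member, at 0.83 (standard error 0.57), while Tmbim1 was at -1.50 (standard error 0.52, edgeR adjusted p 0.359).

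Genes upstream and downstream of calcium entry had fitted values of both signs. For store release and refilling, 2 of 5 tested genes were higher and 3 lower (median -0.21). Itpr2, a release channel of the store, was at -0.21 (standard error 0.51), Itpr3, another, at -1.29 (standard error 0.53, edgeR adjusted p 0.494), and Atp2a2, the pump that refills the store, at 0.46 (standard error 0.56). In the calcineurin-NFAT branch 3 of 5 were higher and 2 lower (median 0.18), with the catalytic subunit gene Ppp3ca at 0.22 (standard error 0.45) and the regulatory subunit gene Ppp3r1 at -1.06 (standard error 0.58). Among modulators of the STIM-ORAI complex all 3 tested genes were below 0 (median -0.33). Of these Sppl3, a protease that promotes the association of STIM1 with ORAI1, was at -0.33 (standard error 0.42) and Ubqln1, a ubiquitin-binding protein that interacts with ORAI1, at -0.34 (standard error 0.48). Of the 15 genes on that list, 11 had a count in any library.

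**Figure D4:**
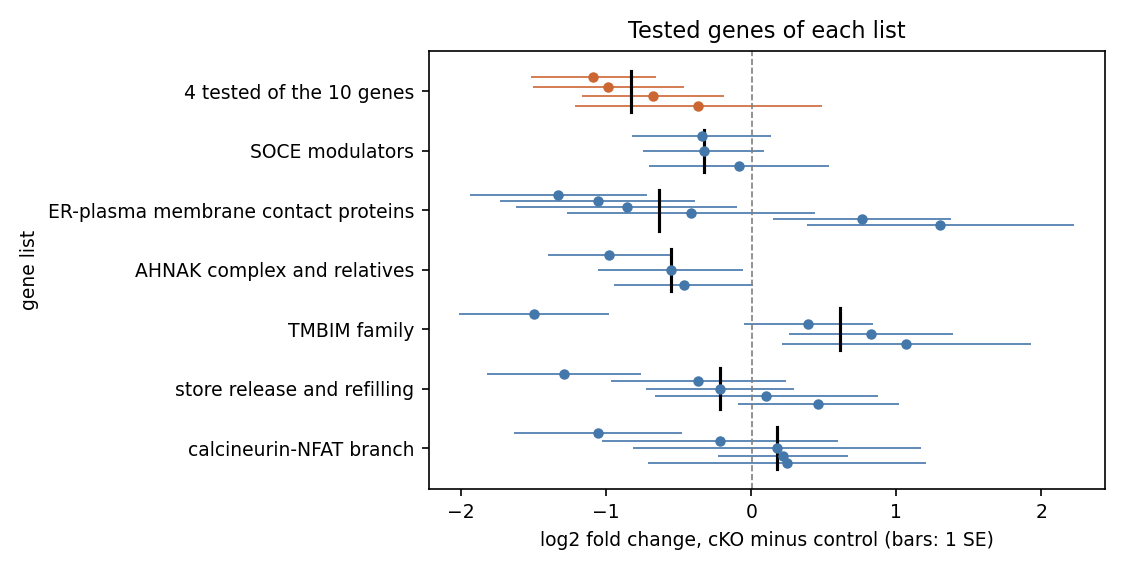
Log2 fold change (cKO minus control) with 1 standard error for the tested members and the tested genes of 6 pathway lists; short black lines are list medians and the dashed line the median of all genes tested. The 4 tested members are all below 0 with a median of -0.83, and the other lists range from -0.64 to 0.61.

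Markers of some other cells separated the groups, and those of others did not. The 9 skeletal muscle genes summed to 1425 and 996 CPM in control but 44.5 and 135 CPM in cKO, with all 6 tested genes lower and 4 of them called. Myh4, Tnnt3, Pvalb and Atp2a1 were at 0 in both cKO libraries, although Atp2a1 was also at 0 in control replicate 1. The hair shaft and inner root sheath list, nearly all of it Tchh, summed to 1382 and 1284 CPM in control and 408 and 315 CPM in cKO, with 1 gene tested. Both lists split the groups in the same direction as Stim1, Orai1 and Ahnak, and muscle in particular expresses STIM and ORAI proteins; their part in the values of these genes was not tested. The keratinocyte genes summed to 3991 and 5854 CPM in control and 10472 and 5911 CPM in cKO. Both cKO sums were above both control sums, but cKO replicate 2 barely exceeded control replicate 2. Krt14 had 174 and 271 counts in control and 1077 and 267 in cKO, and Krt10 had 302 and 1162 against 794 and 132. Scaled to library size, Krt14 averaged 897 CPM in control and 3678 CPM in cKO. Its log2 fold change of 2.04 (standard error 0.44) missed the threshold narrowly, at an edgeR adjusted p of 0.0507. Of the 4 genes, 3 had fitted values above 0 and 1 below, with 0 called. Fibroblast genes did not split the groups, with 160 and 102 CPM in control and 36.4 and 607 CPM in cKO. The library with the most fibroblast counts, cKO replicate 2, had the lowest Ahnak level. It was also the shallowest library, and a relation between these values was not tested. The T cell sums were 331 and 246 CPM in control and 239 and 180 CPM in cKO, which also do not overlap. In cKO replicate 1 most of these counts came from Thy1 (10 and 9 counts in control, 42 and 1 in cKO); without it the other 5 genes summed to 277 and 217 CPM in control and 68.7 and 169 CPM in cKO. Ptprc, the general leukocyte gene, had 26 and 18 counts in control and 2 and 4 in cKO. Its mean level was 98.1 CPM in control and 26.5 CPM in cKO. The part of these cells in the values of the 10 genes was not tested. The Langerhans cell, melanocyte and adipocyte sums overlapped between groups, and the endothelial and smooth muscle lists summed to at most 22.5 CPM in any library. Within the Langerhans cell and macrophage list the genes differed in direction. Cd207 had 8 and 10 counts in control and 1 and 0 in cKO, while Epcam had 50 and 76 against 101 and 63. Scaled to library size, Epcam averaged 255 CPM in control and 558 CPM in cKO. Of the 3 tested genes of that list, 2 were lower and 1 higher in cKO, with 0 called.

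**Figure D5:**
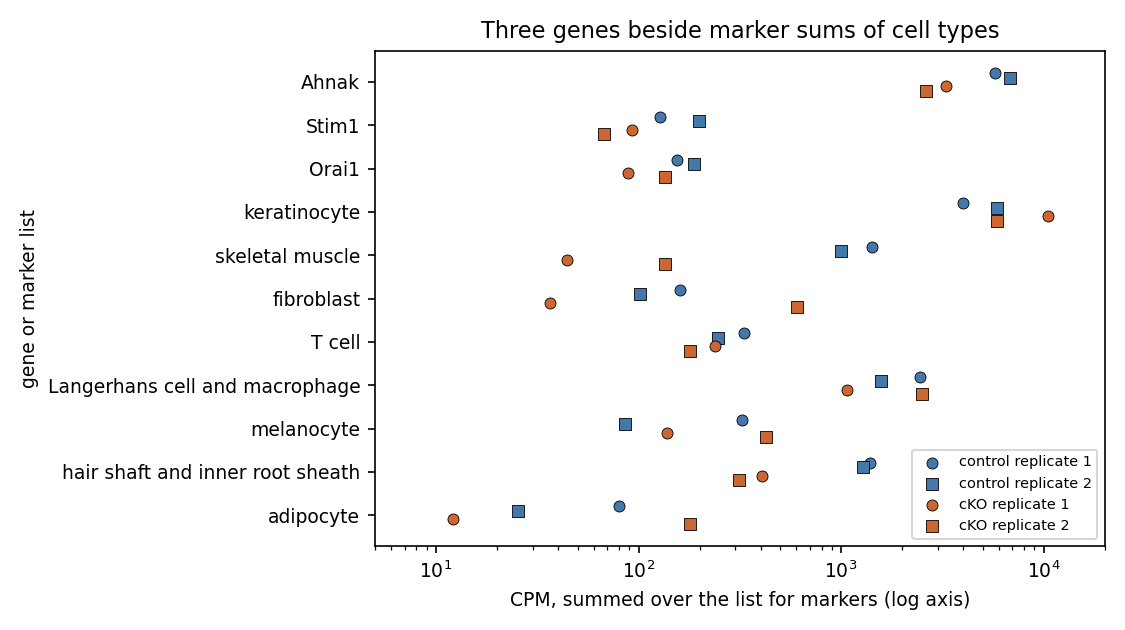
Levels of Ahnak, Stim1 and Orai1 and summed levels of marker genes of 8 cell types in each library, in CPM on a log axis. The muscle (1425 and 996 against 44.5 and 135) and hair lists separate control from cKO, as Ahnak does, while fibroblast and adipocyte sums spread widely within cKO. The T cell sums are also lower in cKO without overlap, and the keratinocyte sums are higher in cKO without overlap.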

How the data were processed

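Libraries were made from total RNA of sodium thiocyanate-separated epidermis with a 3' transcriptome kit and sequenced on an MGI platform, per the labels' protocols. The authors deposited raw counts per gene in 1 table, 1 column per library, with 0 sample columns left unused. The submitters' processing notes name Trim Galore 0.6.7, Trimmomatic 0.39, cutadapt 3.7, STAR 2.7.10a and featureCounts 2.0.1, and the build GRCm39. Collapsing of molecular identifiers, strand use and multi-mapped reads are not given in the sources used here. The table also holds exon length per gene, per the file headers, used for levels per kilobase.

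The filter on low counts was filterByExpr (at least 10 counts, total of at least 15); 4243 genes with 87.6% of the counts passed it. Library sizes over these genes were scaled with TMM (factors 0.833 to 1.12). cKO and control were compared with edgeR 4.0.16 (R 4.3.3), glmQLFit and glmQLFTest, genotype as the only term, threshold 0.05. Standard errors are the absolute log2 fold change over the square root of F, and 95% intervals use the fit's degrees of freedom. Members under the filter were tested in a second fit. For Stim2 the pooled ratio with its exact counting interval replaces the planned bound, and it is also given for Cracr2b. Mitochondria-like pseudogenes were found with blastn 2.17.0, with pseudogene aligned to mitochondrial transcripts of GENCODE M21 (at least 95% identity over 150 bases). They were used for the pseudogene shares and were left out of the library sizes in an alternative. DESeq2 1.42.0, limma-voom (limma 3.58.1), other scalings and filters, the replicate block and each library left out were the alternatives. The fit was tested on simulated data, in which no gene changed by 1 on the log2 scale was called. Absence of a call therefore does not exclude a change of that size.

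Members and lists were chosen with earlier results of these data known. All 10 members are named; from each list, called genes and the 2 most abundant are named, and for Stim1 and Ahnak the 3 nearest genes. Esyt2, Esyt3, Ahnak2, Tmbim1, Itpr3, single cell type markers and genes at 0 were chosen after their values were seen.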

Additional observations from a re-analysis of the deposited data

How the results depend on the processing

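The number of members called was 0 in 16 of 17 alternatives. It was 1 (Ahnak) with a replicate block in which the numbers were crossed, an alternative chosen after seeing the data because the replicate differences of the groups correlated at -0.16. That fit called 90 genes higher and 57 lower over all genes, against 28 and 8 without a block and 16 and 1 with the replicate block as numbered, which left 0 members called. Over all genes the calls were 12 higher and 3 lower with limma-voom, 49 and 26 without a count filter, 40 and 15 at a mean CPM of at least 10, and 34 to 59 and 8 to 34 with single libraries left out. The labels do not say that the numbers pair the samples. The adjusted p of Ahnak ranged from 0.0204 to 0.999 over its alternatives and its log2 fold change from -1.31 to -0.93. Stim1 stayed between -1.33 and -0.61 and Orai1 between -0.94 and -0.40, with no call. Saraf, at -1.26 without cKO replicate 1, turned to 0.34 with limma-voom, to 0.64 without control replicate 1 and to 0.0014 without cKO replicate 2; its counts are few and the cause was not tested. Cracr2b moved to -5.70 without cKO replicate 1, which leaves its only cKO library at 0 counts. Leaving out a library leaves a group with 1 sample, which is assumed to vary like the rest. The ratio of summed shares was 0.535 without Ahnak, and 0.341 to 0.484 with single libraries left out. It was 0.482 on TMM effective library sizes and 0.458 on library totals without the 20 most abundant genes, against 0.413 on library totals. Scaling to library totals alone shifted the median of all genes by -0.21; relative to it, Stim1 was at -0.98 and Ahnak at -1.09. Depth limits 6 of the 10 genes, which are under the count filter.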
